A study of Mus musculus with 16 samples.

Results

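The mitochondrially encoded genes were taken as every gene of the count tables whose symbol starts with mt-, which gave 37 of 47729 gene rows: 13 protein-coding genes, 2 rRNA genes and 22 tRNA genes. They were followed across 16 bulk RNA-seq libraries from mouse liver, 4 from each of 4 cell types, which were hepatocytes (labelled HC), endothelial cells (ECs), Kupffer cells (KCs) and hepatic stellate cells (HSCs, labelled SC). Each cell type had 2 libraries labelled WT and 2 labelled KO. The KO label stands for an endothelial deletion of Zeb2, a transcription factor, by a tamoxifen-inducible Cre under the Cdh5 promoter acting on floxed exon 7, in mice crossed onto a background with an eGFP reporter of recombination (R26R); the controls were littermates without Cre. All mice received 2 mg tamoxifen a day for 5 days, and per the methods of the study they were male, about 8 weeks old, and sampled 2 weeks later without any liver injury. In KCs, HSCs and hepatocytes the KO label therefore compares cells in which this Cre is not meant to act.

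Mitochondrial DNA is a small circular genome that is read from both strands as long precursor RNAs, from which the tRNAs are cut out and thereby release the rRNAs and mRNAs between them. Its protein-coding genes all encode subunits of the respiratory chain: the mt-Nd genes belong to complex I, mt-Cytb to complex III, mt-Co1 to mt-Co3 to complex IV and mt-Atp6 and mt-Atp8 to the ATP synthase, complex V. All other subunits, and the whole of complex II, come from the nucleus, as do the polymerase and the factors that copy and read the mitochondrial genome. Hepatocytes are known for their large number of mitochondria. Stretches of mitochondrial DNA have also been copied into the nuclear genome during evolution, and reads from a gene with such a copy can fit both places.

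Between 12872706 and 15690506 reads were counted on genes per library (median 14806833). 3 reads in a library, the smallest level read as a signal here, came to 0.191 to 0.233 CPM, the count scaled to a common total of reads on genes. The libraries showed the marker genes of their labelled cell type: the summed level of 8 endothelial markers was 17792 to 26766 CPM in ECs and at most 3146 CPM elsewhere, that of 8 KC markers was at least 36319 CPM in KCs and at most 2023 CPM elsewhere, and that of 8 HSC markers was at least 80042 CPM in HSCs and at most 1553 CPM elsewhere. Hepatocyte transcripts were found in the other cells too. All 12 hepatocyte markers had counts in each of these cell types, and their sum, set to 100% in the WT hepatocytes, was 11.6% and 24.1% in the ECs labelled WT, 2.68% and 2.03% in the ECs labelled KO, 6.13% to 11.6% in KCs and 0.552% to 7.67% in HSCs. Zeb2 itself stood at 106 and 106 CPM in the ECs labelled WT and at 199 and 130 CPM in those labelled KO (log2 fold change 0.62 ± 0.24 SE, adjusted p = 0.303, edgeR quasi-likelihood test). A gene count cannot check the deletion of 1 exon, since reads from the rest of the gene are counted with it. The study assessed the deletion by other assays, which were not analysed here, and the groups are called by their labels throughout.

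The levels of the mitochondrial genes fell into separate ranges, which are given here beside the sequence each gene shares with the nuclear genome. On mouse chromosome 1, minus strand, GRCm38, the stretch chr1:24611535-24616197 (4663 bases) holds annotated pseudogenes in the same order as the mitochondrial genes from the end of mt-Co1 to mt-Nd4. The pseudogenes of mt-Co2 (Gm28661), mt-Atp6 (Gm10925), mt-Co3 (Gm28437), mt-Nd4l (Gm10222) and mt-Nd4 (Gm28439) had no substitution over the bases aligned, which were 681, 678, 783, 294 and 876. The start of mt-Co2 (chrM:7013-7102, coding exon, plus strand) and of its copy (chr1:24615476-24615565, minus strand) is shown first because these 90 bases are the same in both, so that a read from them carries nothing that tells the genes apart.
mt-Co2: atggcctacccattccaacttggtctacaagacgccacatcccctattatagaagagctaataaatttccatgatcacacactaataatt
Gm28661: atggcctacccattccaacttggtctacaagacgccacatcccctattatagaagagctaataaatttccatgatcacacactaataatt
The start of mt-Nd3 (chrM:9459-9518) and of Gm28438 (chr1:24613060-24613119, minus strand) is shown because it holds the only base that differs over 345 aligned, in capitals, T3C, counted from 1 at the first base of the gene.
mt-Nd3: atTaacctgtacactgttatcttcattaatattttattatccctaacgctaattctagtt
Gm28438: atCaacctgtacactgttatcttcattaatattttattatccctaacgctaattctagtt
The third pair is the part of mt-Co1 where the nuclear copy begins (chrM:6381-6452 and, in Gm29216, chr1:24616126-24616197, minus strand). Its 6 differing bases (T1056A, C1057T, A1059G, A1060G, C1062A and A1066T, in capitals) stand within the first bases of the copy, after which both sequences run on identically to the end of the 492 aligned bases.
mt-Co1: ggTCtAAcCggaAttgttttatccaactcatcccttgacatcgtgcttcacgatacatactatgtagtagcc
Gm29216: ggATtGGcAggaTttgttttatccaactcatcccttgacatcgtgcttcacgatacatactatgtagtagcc

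Of all 50-base windows along each gene, the share found unchanged in another annotated transcript was 100% for mt-Co2, 99.9% for mt-Co3, 99.5% for mt-Atp6, 98.8% for mt-Nd4l and 98.0% for mt-Nd3. These 5 genes had mean levels, over the 16 libraries and per length, of 1.24 to 14.0 CPM per kb. The share was 62.2% for mt-Nd4 and 51.1% for mt-Co1, was 8.19% for mt-Nd2, 7.61% for mt-Nd5 and 1.04% for mt-Rnr2, and was 0% for mt-Rnr1, mt-Nd1, mt-Nd6 and mt-Cytb; these 9 genes lay between 118 CPM per kb (mt-Nd6) and 2969 CPM per kb (mt-Cytb). The lowest of the 9 was thus above the highest of the 5. mt-Atp8, at 27.4 CPM per kb, was low although no annotated transcript shares its windows. It lies between mt-Co2 and mt-Atp6, where 230 bases separate both genes in the mitochondrial genome and 233 bases separate their copies on chromosome 1, a stretch without an annotated copy; mt-Atp8 also overlaps mt-Atp6 by 43 bases.

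The counts on the copies themselves were of the same order as those on the low genes. Over all libraries Gm28437 had 4906 counts against 2594 for mt-Co3, Gm10925 had 2923 against 1835 for mt-Atp6, and Gm28661 had 1011 against 1876 for mt-Co2. Gm29216 had 1654 counts against 535946 for mt-Co1. Reads that aligned to more than 1 place were left out of the gene counts and made up 24.8% to 30.1% of all counted lines in ECs, KCs and HSCs and 38.2% to 47.9% in hepatocytes; how many of them came from mitochondrial RNA is not given by the files, and the part of shared sequence in the low counts was not tested. The 6 low genes, mt-Atp8 included, held 0.254% to 0.322% of the mitochondrial reads of each library, so that the mitochondrial share below rests almost wholly on the other 9 mRNA and rRNA genes.

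**Figure D1:**
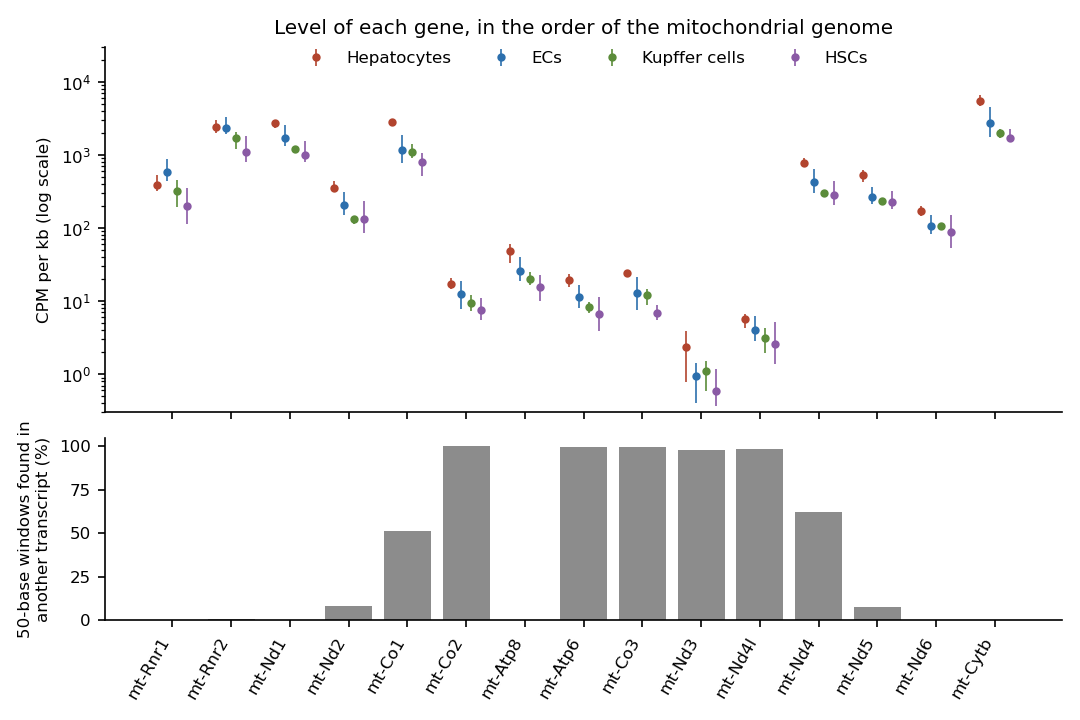
The upper plot gives the level of each mt- mRNA and rRNA gene in CPM per kb of gene on a log scale, as the mean (point) and the lowest and highest library (bar) of 4 libraries per cell type, and the lower plot the percent of its 50-base windows found in another transcript. The genes from mt-Co2 to mt-Nd4l lie far below the others in all 4 cell types, and all of them but mt-Atp8 have 98.0% to 100% of their windows shared.

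The mitochondrial share of the reads on genes was highest in hepatocytes. It was 1.79% and 2.34% in the hepatocyte libraries labelled WT and 2.03% and 1.84% in those labelled KO (mean 2.00% ± 0.251 SD, n = 4). It was 1.14% and 1.87% in the ECs labelled WT and 0.943% and 0.938% in those labelled KO (mean 1.22% ± 0.442, n = 4). KCs had 0.936% and 0.768% under the WT label and 1.001% and 0.952% under the KO label (mean 0.914% ± 0.102, n = 4), and HSCs had 0.612% and 0.589% under WT and 0.591% and 1.05% under KO (mean 0.711% ± 0.227, n = 4). The 95% Wilson intervals, which cover counting error only, were narrow, such as 1.86% to 1.88% for EC library 38, so the spread between libraries was far larger than the counting error.

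All 4 hepatocyte libraries were above all KC and all HSC libraries, whereas EC library 38 overlapped with them. The ratio of the geometric means was 2.19 for hepatocytes over KCs and 2.89 over HSCs (exact permutation test, two-sided, p = 0.0286 each, the smallest that 4 against 4 allows; adjusted over the 6 pairs p = 0.0857). It was 1.70 over ECs (exact permutation p = 0.0857, adjusted p = 0.129). Next in order came ECs, KCs and HSCs. ECs over KCs gave a ratio of 1.29 (exact permutation, adjusted p = 0.229), KCs over HSCs 1.32 (adjusted p = 0.171) and ECs over HSCs 1.70 (adjusted p = 0.129). No pair passed 0.05 after adjustment. Even the pairs at the smallest p that the test allows did not, so missing 0.05 does not show that shares were alike. In the EC library with the highest share, library 38, the hepatocyte markers were also the highest outside hepatocytes (24.1%), and their part in its share was not tested. HSC library 20, labelled KO, had the highest share of the 4 HSC libraries. Without it, hepatocytes, ECs and KCs each passed 0.05 against HSCs (adjusted p = 0.0429 each, exact permutation test). Hepatocytes against KCs passed at the same adjusted p, although its libraries and unadjusted p were unchanged and only the adjustment over the 6 pairs moved it. The library left out is singled out here by its share, so no cell type difference is read from these 4 calls. In bulk libraries, more mitochondrial RNA per cell and less of other RNA cannot be told apart.

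**Figure D2:**
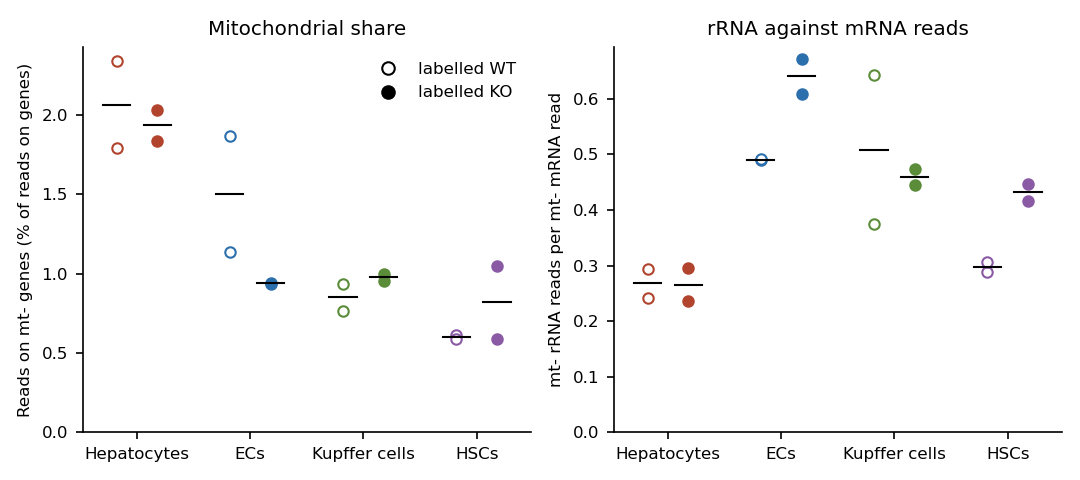
The left plot gives the reads on mt- genes as a percent of the reads on genes and the right plot the mt- rRNA reads per mt- mRNA read, for each library (points, open for the WT label and filled for the KO label) with the group mean (line, n = 2). Hepatocytes have the highest share, 1.79% to 2.34%, and 0.237 to 0.295 rRNA reads per mRNA read, where ECs have 0.490 to 0.672.

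Gene by gene, nearly all of the mt- mRNAs were higher in hepatocytes than in every other cell type. Of the 37 genes 22 passed the filter on low counts, which are the 15 mRNA and rRNA genes and 7 tRNA genes. When each cell type was filtered by itself, mt-Nd3 passed in hepatocytes alone. It could thus enter through its hepatocyte level, and no weight rests on its calls. Of the 15, the edgeR quasi-likelihood test called 14 higher in hepatocytes than in ECs, 15 than in KCs and 15 than in HSCs at an adjusted p under 0.05, where it called 25.5%, 26.3% and 24.4% of the 17214 genes tested higher. Their median log2 fold change was 2.22, 2.24 and 2.61, beside a median of -0.54, -0.24 and -0.60 over all genes tested. These sizes rest on the scaling. The TMM method, which sets libraries to one scale by trimming the genes that differ most, gave hepatocyte libraries factors of 0.497 to 0.588 and the others 1.01 to 1.47. With the library totals alone the medians of the 15 were 0.84, 1.19 and 1.49 and those of all genes -1.85, -1.24 and -1.67, and 10, 11 and 14 of the 15 were called. The distance of the 15 from the median gene was 2.75, 2.49 and 3.21 with TMM and 2.69, 2.43 and 3.16 without. A change of scaling moves all genes of a comparison by nearly the same amount, so this likeness was fixed in advance and is no check on the scaling.

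Complex I is where electrons from NADH enter the chain, and its mitochondrial subunits are encoded by mt-Nd1 to mt-Nd6 and mt-Nd4l. mt-Nd1 stood at 2271 to 2865 CPM in hepatocytes, 1273 to 2467 in ECs, 1074 to 1185 in KCs and 760 to 1477 in HSCs. EC library 38 overlapped with hepatocytes, and the other cell types lay below. The fitted log2 difference was 2.09 ± 0.26 SE against ECs (adjusted p = 2.14e-05 in edgeR), 2.26 ± 0.26 against KCs and 2.59 ± 0.26 against HSCs. mt-Nd5, the gene of the largest of these mitochondrially encoded subunits, ranged from 780 to 1150 CPM in hepatocytes. It reached at most 675 CPM in any other library, with log2 differences of 2.41 ± 0.23, 2.24 ± 0.23 and 2.39 ± 0.23 against ECs, KCs and HSCs. mt-Nd4 (961 to 1246 CPM in hepatocytes and at most 894 elsewhere) and mt-Nd2 (327 to 453 CPM, at most 321 elsewhere) showed the same order. mt-Nd6, the only mRNA read from the other strand, was at 75.0 to 103 CPM in hepatocytes and overlapped with ECs (42.5 to 78.3 CPM) and HSCs (28.1 to 79.4 CPM); its log2 differences were 2.11 ± 0.24, 1.77 ± 0.24 and 2.18 ± 0.24. The strand setting of the counting is not given in the sources used here, so reads from the strand opposite mt-Nd6 may be among its counts. mt-Nd4l and mt-Nd3, both among the genes with a full nuclear copy, had at most 1.98 and 1.36 CPM in any library, and mt-Nd3 had 3 or fewer counts in 6 of 16 libraries.

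mt-Cytb, the catalytic cytochrome b of complex III and the only subunit of that complex from the mitochondrial genome, had the highest level of all members per length. It stood at 5692, 7550, 6417 and 5381 CPM in hepatocytes. The EC libraries had 2942 and 5132 CPM under the WT label and 2301 and 1989 CPM under the KO label, and no EC library reached the hepatocyte range. KCs lay at 1943 to 2556 CPM and HSCs at 1733 to 2567 CPM, ranges that overlapped almost wholly. The log2 difference of hepatocytes was 2.47 ± 0.24 against ECs (adjusted p = 3.17e-06), 2.53 ± 0.24 against KCs and 2.79 ± 0.25 against HSCs, and with library totals alone it was 1.09, 1.48 and 1.67 with adjusted p of 0.000788, 0.000101 and 3.61e-05.

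mt-Co1, the subunit of complex IV that reduces oxygen, had 4075, 4641, 4515 and 4027 CPM in hepatocytes, with no overlap with ECs (1199 to 2899 CPM), KCs (1396 to 2157 CPM) or HSCs (806 to 1656 CPM). Against ECs its log2 difference of 2.73 ± 0.27 was the largest among the 14 mRNA and rRNA genes called there apart from mt-Nd3 (2.79 ± 0.83), on whose calls no weight rests. mt-Co3 and mt-Co2, with a nuclear copy along their whole length, were far lower, and hepatocytes were called higher for them too (2.32 ± 0.29 and 1.91 ± 0.33 against ECs): mt-Co3 at 16.8 to 21.1 CPM in hepatocytes against 5.92 to 16.7 in ECs, and mt-Co2 at 10.0 to 14.4 against 5.28 to 12.8. With library totals alone the call of mt-Co2 against ECs was lost (0.53, adjusted p = 0.152), while those against KCs (0.85, adjusted p = 0.0347) and HSCs (1.20, adjusted p = 0.00565) passed. For complex V, which makes ATP, mt-Atp6 had 10.5 to 16.0 CPM in hepatocytes and 5.49 to 11.4 in ECs, and mt-Atp8 6.88 to 12.3 and 3.82 to 8.16. The counts of mt-Co2, mt-Co3 and mt-Atp6 leave out reads that aligned to more than 1 place.

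For the rRNAs of the mitochondrial ribosome, the results against ECs and KCs depended on the scaling, and the calls against HSCs did not. mt-Rnr2, the large rRNA, had 3170 to 4820 CPM in hepatocytes and 3101 to 5310 in ECs, ranges that overlapped nearly in full. Its log2 difference was 1.44 ± 0.30 with TMM (adjusted p = 0.00145) and 0.05 with library totals alone (adjusted p = 0.890). mt-Rnr1, the small rRNA, had 303 to 505 CPM in hepatocytes and 416 to 853 CPM in ECs, and its log2 difference of 0.80 ± 0.35 missed the threshold (adjusted p = 0.0673) and turned to -0.59 with library totals alone (adjusted p = 0.113). Against KCs, the differences with TMM were 1.31 ± 0.35 for mt-Rnr1 and 1.57 ± 0.30 for mt-Rnr2, and with library totals alone they were 0.28 and 0.53 and did not pass (adjusted p = 0.471 and 0.0919). The TMM call of mt-Rnr1 against KCs was also lost without any one of KC libraries 39 and 27 and hepatocyte library 33 (adjusted p at most 0.0842). Against HSCs they were 2.22 ± 0.36 and 2.33 ± 0.31 with TMM and 1.097 and 1.20 with library totals alone (adjusted p = 0.00916 and 0.00155). Between the 3 other cell types, ECs were higher than HSCs for mt-Rnr1 (log2 1.42 ± 0.35, adjusted p = 0.0111) and mt-Rnr2 (0.88 ± 0.30, adjusted p = 0.0471) and KCs were higher than HSCs for mt-Co3 (0.87 ± 0.28, adjusted p = 0.0269), where 13.3% and 20.6% of all genes were called higher. No member was called between ECs and KCs, where 32% of all genes were called in either direction, nor was any under 0.05 before adjustment or called by DESeq2. Leaving out HSC library 20 raised the counts to 5 members for ECs and 7 for KCs against HSCs, and leaving out EC library 38 took the first to 0. mt-Co3 was lost as a call without any one of KC libraries 31 and 27 and HSC libraries 8, 32 and 40, and mt-Rnr2 was lost without any one of 13 of the 16 libraries.

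**Figure D3:**
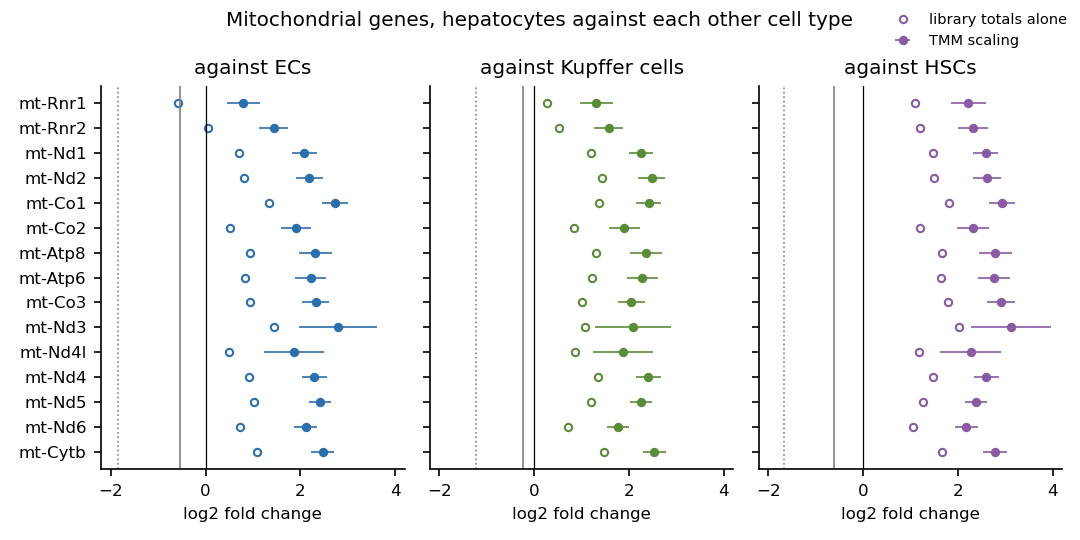
Log2 fold change of hepatocytes against ECs, KCs and HSCs for each mt- mRNA and rRNA gene, with TMM scaling (filled points, bars ± 1 SE) and with library totals alone (open points). Grey lines mark the median over all genes tested, solid for TMM and dotted for library totals; every point lies to the right of the line of its own scaling, and against ECs and KCs mt-Rnr1 and mt-Rnr2 are the nearest to it.

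The proportion of rRNA to mRNA reads gave the same picture without any scaling between libraries. The kits named for the library select polyadenylated RNA, and what this selection does to the proportions of rRNA and single mRNA reads was not tested. Hepatocytes had 0.241, 0.295, 0.237 and 0.295 mt- rRNA reads per mt- mRNA read. ECs had 0.490 and 0.492 under the WT label and 0.609 and 0.672 under the KO label, KCs 0.375 to 0.643, and HSCs 0.288 and 0.306 under WT and 0.416 and 0.448 under KO. Per 100 mt- mRNA reads, mt-Rnr2 had 24.4 ± 3.03 reads (SD, n = 4) in hepatocytes, 49.2 ± 7.50 in ECs, 43.4 ± 9.47 in KCs and 32.9 ± 6.70 in HSCs. The hepatocytes were lower than the other 12 libraries by 0.75 on the log2 scale (exact permutation test over 1820 splits, adjusted over 15 genes p = 0.0124), and mt-Rnr1 was lower by 1.07 (adjusted p = 0.0247). The other 12 libraries pool ECs, KCs and HSCs, and composition was not tested against each of them alone. For mt-Rnr2 the HSCs labelled WT (26.5 and 27.9 reads) overlapped with hepatocytes (21.5 to 27.2). Of the mRNAs, mt-Co2 had a smaller part of the mRNA reads in hepatocytes (0.0739% ± 0.00393 against 0.108% ± 0.0116 in ECs, 0.106% ± 0.0130 in KCs and 0.0978% ± 0.00788 in HSCs; adjusted p = 0.00824, from the smallest p the permutations can give, 0.000549), and so had mt-Nd6 (0.567% ± 0.0382 against 0.717% ± 0.0667, 0.892% ± 0.119 and 0.860% ± 0.242; adjusted p = 0.0220). Set against all mt- reads in place of the mRNA reads, mt-Nd6 no longer passed (adjusted p = 0.136, exact permutation test). All 4 hepatocyte libraries were below the other 12 for mt-Co2 and mt-Nd6. The count of mt-Co2 leaves out reads that also fit its nuclear copy. Reads aligned to more than 1 place made up more of the counted lines in hepatocytes, as given above. Their part in the mt-Co2 difference was not tested, so it is not read as a difference in the transcript itself. The other 11 genes did not pass; mt-Cytb made up 36.7% to 39.6% and mt-Co1 22.3% to 27.5% of the mRNA reads on average in the 4 cell types. Without hepatocyte library 29, mt-Co2 alone of the 15 genes passed (range over the single libraries left out, 1 to 4 genes). For mt-Co1 and mt-Nd1, from complexes IV and I, 1.58 to 1.79 mt-Co1 reads were counted per mt-Nd1 read in hepatocytes, 1.18 and 1.23 in the ECs labelled WT, 0.874 and 0.973 in those labelled KO, 1.29 to 1.82 in KCs, 1.53 and 1.56 in the HSCs labelled WT and 0.992 and 1.12 in those labelled KO. The range in hepatocytes lay within that in KCs, and this ratio was given no test of its own.

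The 22 tRNA genes were nearly absent from these libraries. Their summed level was 3.91 to 25.2 CPM, and 19 of them had a mean under 1 CPM. mt-Tw, mt-Tr and mt-Th had no count in any library, which allows at most 0.191 to 0.233 CPM each. The highest were mt-Tq (mean 4.63 CPM over the 16 libraries), mt-Tm (1.32), mt-Tp (1.27), mt-Tc (0.682) and mt-Ta (0.602). mt-Tq, the tRNA for glutamine, lies on the minus strand at chrM:3772-3842 and overlaps mt-Ti by 3 bases. It had 13.1 and 13.4 CPM in the hepatocytes labelled WT, 5.87 and 7.48 CPM in those labelled KO and 1.38 to 5.05 CPM in all other libraries. mt-Tp, the tRNA for proline, was at 1.66 to 5.39 CPM in hepatocytes and at most 1.59 CPM elsewhere. Of the 7 tRNA genes that passed the filter, 6, 5 and 5 were called higher in hepatocytes than in ECs, KCs and HSCs, and since a gene this low could pass through its hepatocyte level alone, no weight rests on these counts. The kits named for the library select polyadenylated RNA and are not made to keep molecules as short as tRNA.

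The nuclear genes for respiratory chain subunits were higher in hepatocytes as well. Of 77 nuclear-encoded respiratory chain subunits tested, from lists fixed with earlier results of these data known, 76 were called higher in hepatocytes than in ECs, 75 than in KCs and 76 than in HSCs, with a median log2 difference of 2.12, 1.95 and 2.29, beside 2.22, 2.24 and 2.61 for the 15 mitochondrial genes and the 25.5%, 26.3% and 24.4% of all genes called higher. With library totals alone 61, 68 and 71 of the 77 were called higher and 0, 0 and 1 lower, with a median of 0.74, 0.91 and 1.15 beside -1.85, -1.24 and -1.67 for all genes, of which 12.4%, 14.7% and 13.5% were then called higher. All 36 complex I subunits were called higher in each of the 3 comparisons, from Ndufb3 (1.29 ± 0.20 against ECs) to Ndufa6 (2.73 ± 0.21 against ECs); with library totals alone 26, 33 and 32 were, and Ndufb3 was no longer called against ECs (-0.09, adjusted p = 0.697). Also called higher in all 3 were all 4 subunits of complex II, the succinate dehydrogenase with no mitochondrially encoded part, with 2.18 ± 0.16 for Sdha against ECs. All 9 complex III and all 15 complex V subunits were called higher too, Uqcrfs1, the Rieske iron-sulphur protein, by 3.28 ± 0.20 and Atp5g1, which encodes the membrane ring subunit, by 3.18 ± 0.23 against ECs. Of 13 complex IV subunits 12, 11 and 12 were called higher. Cox4i2, the isoform of subunit 4 used under low oxygen, was called lower in hepatocytes than in HSCs (adjusted p = 0.00103); it was at 6.02 to 51.4 CPM in HSCs and at most 0.516 CPM in hepatocytes. Among the electron carriers, cytochrome c (Cycs) was higher in hepatocytes by 1.99 ± 0.26, 1.29 ± 0.26 and 2.04 ± 0.26 against ECs, KCs and HSCs, and with library totals alone by 0.62, 0.26 and 0.91, where the call against KCs was lost (adjusted p = 0.365).

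For the factors that copy and read mitochondrial DNA, the balance of higher and lower calls depended on the scaling. Over all genes tested, 25.5% were called higher and 33.2% lower in hepatocytes than in ECs, 26.3% and 29.3% than in KCs, and 24.4% and 34% than in HSCs. Of 17 genes for replication and transcription 10 were called higher in hepatocytes than in ECs and 2 lower, 11 and 1 against KCs, and 8 and 0 against HSCs. With library totals alone these counts became 2 and 6, 5 and 4, and 4 and 5. Of all genes, 12.4%, 14.7% and 13.5% were then called higher, with medians of -1.85, -1.24 and -1.67. The share of all genes then called lower is not given here, so no trait of these genes is read from this balance.

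Tfam, which packages mitochondrial DNA and starts its transcription, was called higher with TMM, by 1.42 ± 0.25, 1.85 ± 0.26 and 1.07 ± 0.25 against ECs, KCs and HSCs. Its mean level was 24.0 CPM in hepatocytes, 23.5 in ECs and 24.9 in HSCs, and with library totals alone its difference was 0.05 against ECs (adjusted p = 0.897), 0.79 against KCs (adjusted p = 0.0122) and -0.05 against HSCs (adjusted p = 0.871). Tfb2m, the partner of the polymerase at the promoters, was higher by 1.83 ± 0.28, 1.97 ± 0.29 and 2.08 ± 0.29 with TMM, and its call against ECs was lost with library totals alone (0.45, adjusted p = 0.180). Polrmt, the mitochondrial RNA polymerase, was called higher than in ECs (1.37 ± 0.54, adjusted p = 0.0440) and KCs (2.25 ± 0.55) with TMM, with 1.17 ± 0.53 against HSCs (adjusted p = 0.0775). With library totals alone it passed in none of the 3 (0.01, 1.19 and 0.05, adjusted p = 0.9999, 0.0871 and 0.969). Polg2 and Mgme1, which serve DNA synthesis and its end processing, were lower than in ECs on both scales (-0.98 ± 0.29 and -0.82 ± 0.28 with TMM, -2.35 and -2.19 with library totals). The helicase Twnk, listed as Peo1, was higher than in ECs on both scales (2.88 ± 0.37 and 1.501). Polg, the DNA polymerase, did not pass in any of the 3 comparisons with TMM (-0.11 ± 0.29, -0.03 ± 0.29 and -0.21 ± 0.29) and was called lower in all 3 with library totals alone (-1.47, -1.09 and -1.32, adjusted p = 0.00214, 0.0135 and 0.00432).

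Of 21 genes of mitochondrial RNA processing and stability, 15, 15 and 14 were called higher and none lower with TMM, and 1, 1 and 5 higher and 5, 2 and 4 lower with library totals alone. Lrpprc and Slirp, which together bind and stabilise mitochondrial mRNAs, were higher by 2.11 ± 0.35 and 1.48 ± 0.23 than in ECs with TMM, and both calls were lost with library totals alone (0.74 and 0.11, adjusted p = 0.100 and 0.641). Slirp had a mean of 18.6 CPM in hepatocytes, 17.5 in ECs, 18.9 in KCs and 19.7 in HSCs. Hsd17b10, a subunit of the enzyme that cuts tRNA 5′ ends, was higher than in ECs on both scales (3.13 ± 0.20 and 1.75). Of 9 regulators of mitochondrial biogenesis 2, 2 and 3 were called higher and 3, 2 and 2 lower with TMM, shares near those of all genes. With library totals alone 1, 1 and 2 were called higher and 5, 6 and 5 lower. For both lists, the counts with library totals stand beside the low all-gene medians given above, and no trait of these genes is read from them. Ppargc1a, the coactivator PGC-1α, was at 7.36 to 14.7 CPM in hepatocytes, 0 to 5.29 in ECs, 0 to 2.28 in KCs and 0 to 0.512 in HSCs. Pprc1, its relative, was at 3.30 to 8.73 CPM in hepatocytes and 50.2 to 59.2 CPM in ECs and was called lower on both scales (-1.97 ± 0.25 and -3.33). Esrra did not pass in any comparison with TMM and was called lower than in KCs with library totals alone (-1.46, adjusted p = 0.0242). Ppargc1b passed against HSCs only with TMM (2.20 ± 0.48), a call lost with library totals alone (1.07, adjusted p = 0.0618), where it was called lower than in KCs (-2.04, adjusted p = 0.00274).

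The KO label was next set against the WT label within each cell type, which asks whether loss of endothelial Zeb2 goes with a change in mitochondrial transcripts in any liver cell. No member was called by edgeR in ECs, where 1.97% of 14631 genes were called lower and 0.116% higher, nor in KCs, HSCs or hepatocytes, where 0% of 13867, 14390 and 11548 genes were called. Before adjustment, 4 of 16 members tested had p under 0.05 in ECs, 2 of 17 in HSCs, 1 of 21 in hepatocytes and 0 of 17 in KCs. Over all genes tested, 2192 of 14631, 1259 of 14390, 821 of 11548 and 706 of 13867 had p under 0.05, in the same order of cell types. With 2 libraries a group, the share itself could not reach an exact permutation p below 0.333.

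In ECs all estimates were lower under the KO label. The share was 1.14% and 1.87% under WT and 0.943% and 0.938% under KO, a ratio of geometric means of 0.646 without overlap. The log2 differences of the 14 mRNA and rRNA genes tested ran from -0.94 to -0.32 with a median of -0.67, beside -0.01 for all genes tested. mt-Co1 was at 1798 and 2899 CPM under WT and 1239 and 1199 CPM under KO (-0.94 ± 0.31, adjusted p = 0.237 in edgeR), mt-Cytb at 2942 and 5132 against 2301 and 1989 CPM (-0.91 ± 0.34, adjusted p = 0.292) and mt-Nd4 at 639 and 894 against 415 and 423 CPM (-0.87 ± 0.26, adjusted p = 0.193). DESeq2 called these 3 genes lower (adjusted p = 0.0165, 0.0378 and 0.0164). The rRNA levels lay closer together, mt-Rnr1 at 416 and 853 CPM under WT and 467 and 519 CPM under KO, and mt-Rnr2 at 3312 and 5310 against 3101 and 3245 CPM. The hepatocyte markers differed in the same direction between these libraries, at 11.6% and 24.1% of the level in WT hepatocytes under the WT label and 2.68% and 2.03% under the KO label, a summed level of 16048 and 33356 against 3716 and 2815 CPM. Of 857 hepatocyte-enriched genes, which had at least 10 CPM in the WT hepatocytes and at least 8 times the level in the WT KCs, 833 were tested in ECs; 258 of these were called lower, and they made up 89.6% of the 288 genes called lower. Their part in the mitochondrial difference was not tested. The nuclear respiratory chain subunits, 75 tested, had a median of 0.01 in the same comparison with none called.

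In HSCs the estimates lay on the other side. All 13 mRNA and rRNA genes tested were above 0, from 0.01 (mt-Co1) to 1.19 (mt-Rnr1), with none called. Without the filter on low counts, mt-Rnr1 alone was called (adjusted p = 0.00512, edgeR quasi-likelihood test). mt-Rnr1 was at 109 and 122 CPM under WT and 186 and 339 CPM under KO (1.19 ± 0.36, adjusted p = 0.441 in edgeR), and mt-Nd6 at 32.3 and 28.1 against 43.4 and 79.4 CPM (1.021 ± 0.37, adjusted p = 0.526). For both genes the groups did not overlap, and for both HSC library 20 was far above the other 3. The share of that library was 1.05% beside 0.589% to 0.612% in the other 3, and without it the KO to WT difference of the HSC share was -0.02 on the log2 scale, in place of 0.39. The hepatocyte markers went the other way in HSCs, at 3.47% and 7.67% under WT and 0.552% and 1.42% under KO.

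KCs and hepatocytes showed smaller estimates. In KCs the share was 0.936% and 0.768% under WT and 1.001% and 0.952% under KO, a ratio of 1.15 without overlap, and the 14 genes tested ran from -0.13 (mt-Rnr1) to 0.39 (mt-Atp8) with a median of 0.03. mt-Co1 was at 1503 and 1396 CPM under WT and 2157 and 1741 CPM under KO (0.36 ± 0.29, adjusted p = 0.938). In hepatocytes the 15 genes ran from -0.43 (mt-Nd3) to 0.13 (mt-Nd1) with a median of -0.06, and without mt-Nd3 the lowest was mt-Rnr1 (-0.18). mt-Tq, lower in both libraries under the KO label, had the lowest p of the members in hepatocytes (log2 -0.92 ± 0.31, adjusted p = 0.700 in edgeR).

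Over the 4 cell types together, the share under the KO label was 0.980 times that under the WT label (exact permutation of labels within cell types, 1296 splits, p = 0.846), and no member was called in the fit with cell type as a term, where 0% of 17214 genes were called. The difference between cell types in the label effect was called for no member in any of the 6 pairs of cell types, where 0.0697% of all genes were called for hepatocytes against ECs, 0.0116% against KCs and 0.0755% against HSCs, 2.07% for ECs against KCs, 0.0349% for ECs against HSCs and 0.593% for KCs against HSCs. The rRNA to mRNA proportion was higher under KO in ECs (0.609 and 0.672 against 0.490 and 0.492) and in HSCs (0.416 and 0.448 against 0.288 and 0.306), without overlap in both, and overlapped in KCs and hepatocytes; no exact test of 2 against 2 can pass 0.05.

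**Figure D4:**
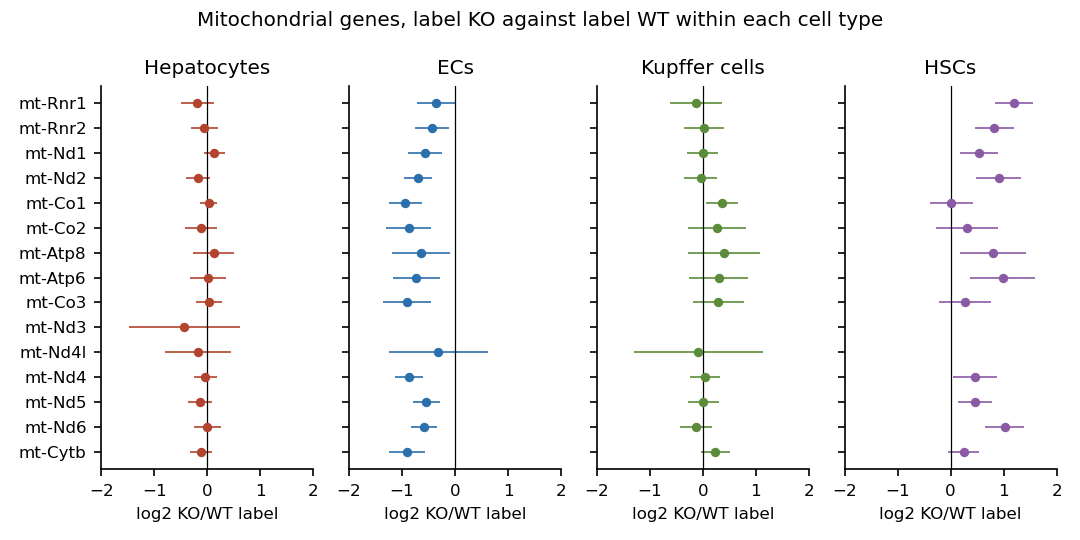
Log2 fold change of the KO label against the WT label (points, bars ± 1 SE) of each mt- mRNA and rRNA gene that passed the filter on low counts, within each cell type (2 libraries per label). All EC points lie below 0 and all HSC points above 0, and no gene passed an adjusted p of 0.05.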

How the data were processed

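RNA was measured in bulk in 16 libraries of cells isolated from mouse liver, hepatocytes by density centrifugation and the other 3 types by flow sorting, UV-positive HSCs, F4/80-positive KCs and Meca32-positive ECs. Per the labels and the methods of the study, the authors trimmed reads with Trimmomatic 0.32, aligned them to GRCm38 with HISAT2 2.1.0 and deposited raw counts per gene from HTSeq 0.9.1, 1 table per library. The labels and the methods name different library kits (TruSeq stranded mRNA and Smart-seq2). The strand setting and the annotation release are not given in the sources used here. HTSeq leaves out reads that align to several places, which lowers counts of genes with a copy elsewhere, and its 5 summary lines were left out of library sizes.

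Symbols, coordinates and transcript sequences came from GENCODE mouse release 21 (98.9% of the gene IDs matched). CPM is relative to all reads on gene rows. A gene was tested where it passed edgeR's filterByExpr. The main test was edgeR 4.0.16 (quasi-likelihood, TMM) in R 4.3.3, with Benjamini-Hochberg adjusted p under 0.05 over all genes tested. All 16 libraries in 8 group means entered the tests between cell types, and the 4 libraries of a cell type entered its test of the label. Single values (shares, composition with 0.5 added to each count) were tested by two-sided exact permutation tests over all splits, computed with numpy 2.4.6. The Wilson intervals came from scipy 1.17.1. DESeq2 1.42.0, other scalings and filters and leaving out each library were the alternatives. The edgeR and permutation steps were tested on simulated data.

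All mt- mRNA and rRNA genes were named, the 5 tRNA genes of highest mean CPM, and of each nuclear list those called with the 2 highest or 2 lowest fold changes, plus Tfam, Polrmt, Tfb2m, Polg, Twnk, Lrpprc, Slirp, Ppargc1a, Ppargc1b, Esrra and Cycs; not every one of these is printed. The copies on chromosome 1 were named for their match to a mitochondrial gene. The members and the lists were chosen with earlier results of these data known. Libraries of a group are labelled as separate samples, but the sources do not say whether they came from separate mice or which libraries share a liver, so p-values measure the spread between these libraries only. Library numbers are those of the sample titles.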

Additional observations from a re-analysis of the deposited data

Results flagged for a closer look

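The KO over WT label ratio of the mitochondrial share lay on opposite sides of 1 in ECs (0.646) and KCs (1.15), without overlap of the labels in either. The log2 ratio in ECs minus that in KCs was -0.836, and an exact permutation of the labels within both cell types gave p = 0.0556, the smallest that 36 splits allow (adjusted over 6 pairs of cell types p = 0.333), so this design could not have passed 0.05. The hepatocyte markers fell on the same sides, at 11.6% and 24.1% of the level in WT hepatocytes in ECs labelled WT, 2.68% and 2.03% in ECs labelled KO, 6.13% and 8.48% in KCs labelled WT and 9.46% and 11.6% in KCs labelled KO. Their part in the ratio was not tested.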

How the results depend on the processing

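With 2 libraries a label, tests of the label rested on few residual degrees of freedom, and an exact test within a cell type could not pass 0.05. No paired analysis was possible because library numbers are unique to each library and no source used here says which libraries came from the same liver. Whether libraries of different cell types came from the same liver is thus not known, and the tests between cell types treat them as independent.

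The other settings changed these counts of called members. Between hepatocytes and ECs, 20 of 22 members tested became 13 with the WT libraries alone. They also became 13 with library totals in place of TMM, a setting chosen after seeing the data. With at least 10 counts required in every library there were 13 as well. That filter left mt-Nd3, mt-Nd4l and all tRNA genes but mt-Tq untested, so that drop is not one of lost calls. Between ECs and HSCs, 2 became 1 with RLE size factors, 1 with scaling on nuclear genes, 4 with library totals and 0 with the WT libraries alone. Between KCs and HSCs, 1 became 4 with DESeq2, 3 with RLE size factors, 2 without the filter on low counts, 2 with at least 10 counts and 0 with the WT libraries alone. For the label, 0 became 3 with DESeq2 in ECs and 1 without the filter in HSCs (mt-Rnr1). At an unadjusted p, 0 became 4, 2 and 1 in ECs, HSCs and hepatocytes, to be set beside the all-gene counts given with the label tests. Beyond members that a filter left untested, the causes of these changes were not tested.

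Leaving out 1 library at a time gave 16 to 21 members for hepatocytes against ECs, 16 to 19 against KCs and 17 to 21 against HSCs, 0 to 5 for ECs against HSCs, 0 to 7 for KCs against HSCs, 0 for ECs against KCs, 0 to 2 for the label in ECs (mt-Co1 and mt-Cytb without library 34), 0 for the label in the other cell types and for its difference between them, and 1 to 4 genes for the composition. The counts between cell types include tRNA genes and mt-Nd3, on whose calls no weight rests. The share of all genes called in each of these settings is not given here, so the counts are no measure of how firm the differences are. Where an arm kept 1 library, it was assumed to vary like the others. The log2 ratio of the share was 0.659 to 0.991 for hepatocytes against ECs, 1.05 to 1.18 against KCs, 1.45 to 1.74 against HSCs, 0.138 to 0.470 for ECs against KCs, 0.541 to 0.971 for ECs against HSCs and 0.329 to 0.607 for KCs against HSCs. Without HSC library 20 the 3 ratios against HSCs (1.74, 0.971 and 0.607) and that of hepatocytes against KCs (1.13) passed the threshold (adjusted p = 0.0429 for each, exact permutation test). The libraries and unadjusted p of hepatocytes against KCs were unchanged there, so only the adjustment over the pairs moved that ratio past the threshold.

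The label ratio of the share over 4 cell types ran from -0.133 to 0.0747 on the log2 scale. It turned positive without EC library 38 (0.0609), KC library 31 (0.00661), HSC library 8 (0.0747) or hepatocyte library 33 (0.0194). The ratio in hepatocytes ran from -0.276 to 0.112 (without library 33) and that in HSCs from -0.0222 (without library 20) to 0.808. Set against all mt- reads, the hepatocyte difference in composition changed sign for mt-Nd2 (0.125), mt-Atp8 (0.133), mt-Atp6 (0.0833), mt-Co3 (0.113), mt-Nd3 (0.107), mt-Nd4 (0.124) and mt-Nd5 (0.0229), none of them called. With single libraries left out it ran from -0.128 to 0.0401 for mt-Atp8 (library 29) and from -0.360 to 0.259 for mt-Nd3 (library 41). mt-Nd6 no longer passed against all mt- reads (adjusted p = 0.136, exact permutation test). Every other setting, among them all counted lines as the total, mt- mRNAs alone and the label tests without hepatocyte-enriched genes, left the counts within 1.5 times and the ratios on the same side of the threshold. The label tests without hepatocyte-enriched genes dropped nuclear genes only. They left the mt- counts as they were, so they cannot show how many of these came from hepatocyte RNA.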
